A study of Mus musculus with 10 samples.

Results

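F1 males that received 1 set of autosomes from a BFMI father and 1 from a B6N mother (patBFMI) were compared with the inbred BFMI line of their fathers, which carries 2 BFMI sets. The comparison addresses how far a single paternal BFMI genome departs from a pair of them in liver expression. It was defined by 3 patBFMI and 2 BFMI libraries out of 10 in the series, and by the 17714 autosomal genes that reached 10 counts in 2 or more of these 5 libraries, out of 41388 genes in the count table. The 3 patBFMI males were 10 weeks old, came from different B6N mothers and were fed a high fat diet from day 21 to day 70. BFMI (BFMI860-12/Hber), a line with juvenile obesity, was represented by 1 male (BFMI 1) and 1 female (BFMI 2) of 10 weeks. The sample records put the parental strain animals on a standard breeding diet, whereas the design text describes the sequenced inbred animals as raised on a high fat diet, so diet, sex and genome cannot be fully told apart between the groups. Values of 3 males of the reciprocal cross (matBFMI, BFMI mother, B6N father, same diet) and of 1 male and 1 female of the lean strain B6N (C57BL/6NCrl, with the same uncertainty about diet as BFMI) are shown where they help to place a gene. All 10 livers were taken whole, as a mixture of cell types, so fewer cells of a type and less RNA per cell cannot be told apart.

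The liver burns fatty acids in mitochondria and peroxisomes and stores the surplus as triglyceride in lipid droplets. The nuclear receptor PPARα, which is activated by fatty acids, raises the genes of fatty acid uptake and oxidation, while insulin favours fat synthesis and restrains glucose output. In mice, many liver genes also differ between the sexes because the pituitary releases growth hormone in pulses in males and more evenly in females. Where the alleles of the parental strains differ in their own regulatory sequence, an F1 animal is known to express such a gene at a level between the strains.

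Reads assigned to genes numbered 51080161 to 58955349 in the patBFMI libraries, against 96023811 in BFMI 1 and 50979788 in BFMI 2. At least 1 read was found for 32421 genes in patBFMI 1, for 22095 in patBFMI 2, for 23490 in patBFMI 3, and for 34441 and 29942 in BFMI 1 and BFMI 2. All patBFMI libraries were run on lane 5, BFMI 1 on lane 1 and BFMI 2 on lane 4, so lane and group cannot be told apart. The 8 hepatocyte markers were all detected and edgeR called none of them (2 were higher at an unadjusted p below 0.05, 1 was called higher by DESeq2 and 1, Cps1, in a fit of all 10 libraries with a term for sex), and their summed level ranged from 60250 to 69480 CPM (counts scaled to a common library size) in patBFMI, against 61990 and 86580 in BFMI. The summed levels of 5 red blood cell genes did not overlap, with 412 to 475 CPM in patBFMI against 676 to 810 CPM in BFMI. EdgeR called none of these 5 genes, while DESeq2 and the fit with a term for sex each called 4 lower. Sums of 2 neutrophil genes did not overlap either, with 0.445 to 0.908 CPM in patBFMI against 2.06 to 4.91 CPM in BFMI. Ngp, Camp, Ltf and Elane of that list were below the count minimum. Among all genes tested, 18.5% had every patBFMI library above both BFMI libraries and 15.3% had every one below. Bile duct genes summed to 20.7 to 24.5 CPM in patBFMI and 28.2 to 55.2 CPM in BFMI, and lymphocyte genes to 12.1 to 13.6 CPM in patBFMI and 7.72 to 10.4 CPM in BFMI. Genes of the sinusoidal endothelium summed to 333 to 401 CPM in patBFMI and 304.5 to 323.6 CPM in BFMI. Kupffer cell genes summed to 298 to 307 CPM in patBFMI and 295 to 363 CPM in BFMI, so the groups overlapped. Of these 11 genes edgeR called only Marco, which fell (-2.25). Its call was lost without patBFMI 2 (adjusted p = 0.0724) or patBFMI 3 (0.0508). It was also lost without BFMI 2, where the change was -1.79 with 1 BFMI library left. The fit with a term for sex called 0 of the 11. Whether these cell types have a part in the differences described here was not tested.

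In patBFMI, 158 genes were higher than in BFMI (0.892% of the genes tested) and 173 were lower (0.977%) at an adjusted p below 0.05 in edgeR's quasi-likelihood test. All fold changes are given as log2 of patBFMI over BFMI with the standard error of the fit, and levels as CPM with TMM scaling over the 10 libraries, which are comparable between libraries but not between genes of different length. The median change of the genes that rose was 1.44 and that of the genes that fell was -1.33, against -0.003 over all genes tested. Of the genes that rose, 52 changed by more than 2 on the log2 scale, as did 43 of those that fell. For each of the 331 genes the 3 patBFMI libraries lay on 1 side of both BFMI libraries. The genes were called from these same libraries, so their separation is a description and adds no support to the calls. Over all genes tested, 18.5% had every patBFMI library above BFMI and 15.3% had every patBFMI library below, which is not a like comparison. In a fit of all 10 libraries with a term for sex (sex-adjusted fit, background 1.64% higher and 1.67% lower), 115 of the 158 and 127 of the 173 genes were called again in the same direction. The number of calls depended on single libraries. It was 220 higher and 457 lower without patBFMI 1, 64 and 58 without patBFMI 2, 71 and 47 without patBFMI 3, 90 and 109 without BFMI 1, and 135 and 175 without BFMI 2, and 37 higher and 31 lower genes were called in every one of these 5 fits. On the deposited RPKM values limma called 0 genes in either direction (251 higher and 1545 lower at an unadjusted p below 0.05 with a pseudocount of 1), whereas edgeR on the counts had 1324 higher and 1430 lower genes at that unadjusted p and DESeq2 called 554 and 509 genes.

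**Figure D1:**
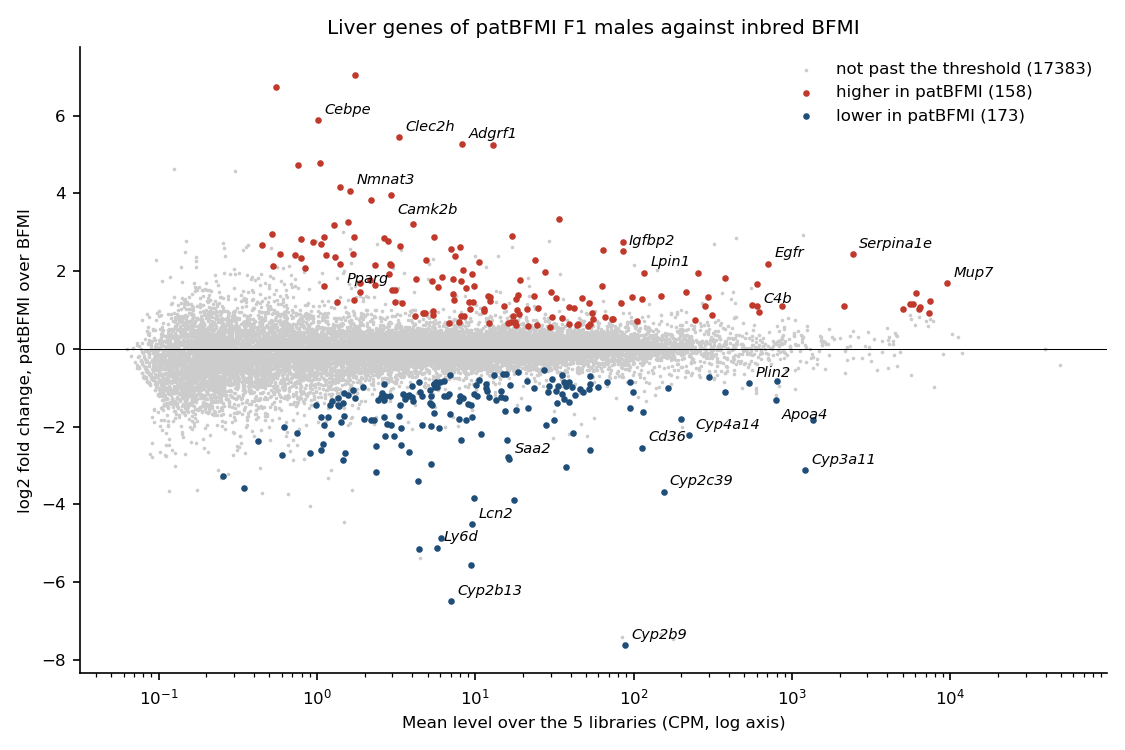
Log2 fold change of patBFMI over BFMI (vertical axis) against the mean level over the 5 libraries in CPM (horizontal log axis) for the 17714 autosomal genes tested. Red points mark the 158 genes higher in patBFMI, blue points the 173 genes lower in patBFMI, and grey points the rest; Cyp2b9 lies lowest and Serpina1e and Mup7 stand out at the abundant end.

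Several genes of fatty acid oxidation were lower in patBFMI than in BFMI. Of 22 genes in the list of PPARα targets, 6 fell and 1 rose (median -0.59). This list also holds the receptors Ppara and Pparg and the genes Ppargc1a and Ppargc1b, and the gene that rose was Pparg. Of 29 genes of peroxisomal and omega oxidation 8 fell and none rose (median -0.36), with Cyp4a14 counted in both lists. Cd36, the fatty acid translocase (chromosome 5, 17781690 to 17888801, minus strand, GRCm38), had 29.0, 47.7 and 39.8 CPM in patBFMI, against 229 CPM in the BFMI male and 218 CPM in the BFMI female. The patBFMI mean was 17.4% of the BFMI mean, the sexes of BFMI were alike, and the change was -2.54 ± 0.21 (adjusted p = 0.0027). B6N had 50.9 and 44.3 CPM and matBFMI 73.8, 38.9 and 52.1 CPM, so patBFMI lay near the level of its mothers' strain. Acnat2, a peroxisomal acyl-CoA amino acid N-acyltransferase, had 18.4, 20.9 and 13.2 CPM in patBFMI, against 101 and 110 CPM in BFMI (-2.61 ± 0.19, adjusted p = 0.0013). Its level was 45.8, 51.3 and 32.2 CPM in matBFMI, 108 CPM in the B6N female and 15.5 CPM in the B6N male. Cyp4a14, a fatty acid omega-hydroxylase, had 89.2, 124 and 62.0 CPM in patBFMI, against 432 and 414 CPM in BFMI (-2.21 ± 0.27, adjusted p = 0.011). Here matBFMI had 452, 252 and 243 CPM and B6N 534 and 261 CPM, so patBFMI lay below both parental strains. Acot2, a mitochondrial thioesterase that splits acyl-CoA, had 4.30, 5.47 and 3.22 CPM in patBFMI, against 15 and 15.7 CPM in BFMI (-1.84 ± 0.21, adjusted p = 0.0089). For Acot2, matBFMI had 10.5, 9.37 and 14.1 CPM and B6N 7.30 and 7.33 CPM. For these 4 genes the highest patBFMI library was far below the lower BFMI library, and each call was kept when any 1 of the 5 libraries was left out.

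Further genes of these lists also fell, with calls that depended more on single libraries. Crat and Crot, the carnitine acyltransferases that shuttle acyl groups out of peroxisomes, changed by -0.94 ± 0.14 (adjusted p = 0.022) and -0.82 ± 0.15 (adjusted p = 0.042). Means in patBFMI, matBFMI and B6N were 27.3, 47.6 and 39.6 CPM for Crat and 619, 510 and 811 CPM for Crot. The call of Crot was lost in all 5 fits that left out 1 library (adjusted p up to 0.205), and that of Crat in each of them but the one without patBFMI 1 (up to 0.0872). Pdk4, which blocks pyruvate use when fat is burned, had 4.66, 6.66 and 5.07 CPM in patBFMI against 14.9 and 13.8 CPM in BFMI (-1.41 ± 0.17, adjusted p = 0.011). Fgf21, a fasting hormone of the liver, had 1.78, 2.82 and 2.72 CPM in patBFMI against 13.6 CPM in the BFMI male and 5.42 CPM in the BFMI female (-1.98 ± 0.37, adjusted p = 0.048), and its call was lost without patBFMI 2, patBFMI 3 or BFMI 1 (adjusted p up to 0.163). The thioesterases Acot1, Acot3 and Acot4, which lie beside Acot2 on chromosome 12, also fell (-1.25, -4.86 and -1.67), as did the hydroxylases Cyp4a31 and Cyp4a32 (-1.79 and -1.15). Acot1 and Acot2 share 95.1% of bases over 1274 bases of transcript, and Cyp4a31 and Cyp4a32 are near copies of Cyp4a10 (96.1% over 1593 bases and 97.2% over 1530 bases), so that reads of these pairs may have been split uncertainly. Cpt1a, the gate of mitochondrial import, and Ppara itself were not called, with changes of -0.20 ± 0.15 (adjusted p = 0.59) for Cpt1a and -0.11 ± 0.16 (adjusted p = 0.82) for Ppara. In the list of mitochondrial β-oxidation, 24 of 26 members had a negative change (median -0.33), but only Acot2 and Pdk4 passed the test. Without patBFMI 3 the number of lower genes was 2 for PPARα targets, 3 for peroxisomal and omega oxidation and 1 for mitochondrial β-oxidation, and without patBFMI 2 it was 4, 4 and 2. In the sex-adjusted fit 7, 6 and 4 genes of these lists were lower, with Pdk4 (adjusted p = 0.14), Cyp4a32 (adjusted p = 0.15), Acot3 (adjusted p = 0.087) and Acot4 (adjusted p = 0.099) no longer among them.

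Because the lower genes of fat handling include PPARα targets, the promoters were searched for the direct repeat that the PPARα and RXR pair is known to bind, 2 copies of AGGTCA with any 1 base between them, on both strands with up to 2 mismatches, in windows of 250 bases before to 50 bases after the RefSeq start (GRCm38.p6). Of 14 genes called lower in the lists of fatty acid uptake, oxidation, lipid droplets and PPARα targets, 11 had a promoter in the RefSeq table and 3 held a match, compared with 8.33% of all genes called lower, 4.5% of all genes called higher and 3.99% of all autosomal genes tested that had a promoter. The 14 genes were chosen from lists that include PPARα targets, so these shares do not compare like with like. No share was taken for members of the lists that were not called. A part of PPARα in these changes was not tested. The 3 matches are shown with 8 bases on either side, read 5′ to 3′ on the strand of the gene, with the match in capitals, since they lie in genes whose levels are given here. In all of them the repeat runs on the opposite strand with 2 mismatches.
Plin2 (chr4:86670264-86670292, minus strand): agctttcaGGACCCCTGACCTaagtcaga
Cd36 (chr5:17835939-17835967, minus strand): tggttctcTGGCCTCTGACTTacttggat
Acot4 (chr12:84038358-84038386, plus strand): ccgaagcaTGACCTTTGGCCGgtctgtgc
The match began 225 bases before the start of Plin2, 63 before that of Cd36 and 13 before that of Acot4. The start used for Cd36 is that of RefSeq and its first bases were not found in the GENCODE transcripts of the gene. A match describes these letters only, and the sequence of the BFMI line was not used here.

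**Figure D2:**
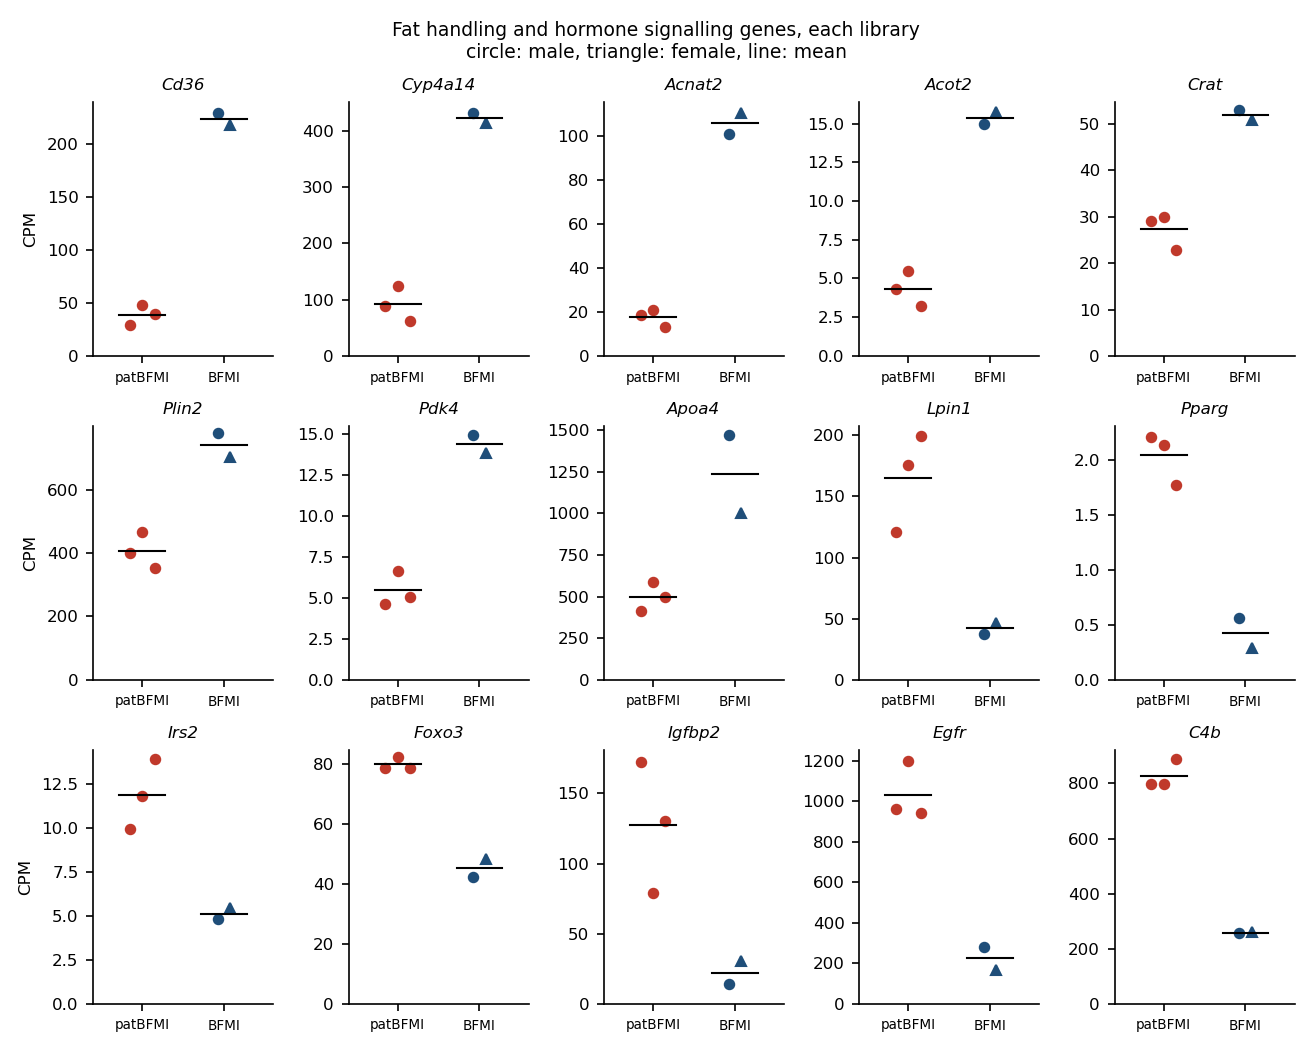
Level in CPM (vertical axes start at 0) of 15 genes of fat handling, hormone signalling and complement in each patBFMI (red, left) and BFMI (blue, right) library; circles are males, the triangle is the BFMI female and lines are group means. For every gene shown the 3 patBFMI libraries lie on 1 side of both BFMI libraries, and the BFMI male and female lie close together for Cd36, Cyp4a14, Acot2 and C4b.

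Lipid storage genes pointed in the same direction with fewer calls. Plin2, the coat protein of lipid droplets, had 399, 467 and 353 CPM in patBFMI, against 778 and 702 CPM in BFMI (-0.88 ± 0.16, adjusted p = 0.048). It was the only member called among 18 lipid droplet genes (median -0.52, 14 negative), 5 were lower in the sex-adjusted fit, and its own call was lost in each of the 5 fits that left out 1 library (adjusted p up to 0.204, without patBFMI 3). Mgll, the monoacylglycerol lipase, averaged 98.6 CPM in patBFMI and 198 CPM in BFMI without passing the test (-1.02, adjusted p = 0.057). Apoa4, a lipoprotein component made in larger amounts when the liver holds more fat, had 414, 587 and 495 CPM in patBFMI, against 1467 and 1004 CPM in BFMI (-1.32 ± 0.22, adjusted p = 0.03). Its call was lost without patBFMI 2 (adjusted p = 0.0701), patBFMI 3 (0.129) or BFMI 1 (0.127).

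Fat synthesis was not lower as a group. Of 31 lipogenic genes 1 rose and none fell (median -0.02). Lpin1, the phosphatidate phosphatase that makes diacylglycerol for triglycerides, had 121, 176 and 199 CPM in patBFMI, against 37.8 and 46.7 CPM in BFMI (1.96 ± 0.24, adjusted p = 0.011). The lowest patBFMI library was above the higher BFMI library by more than the whole BFMI range, although the call was lost without patBFMI 2 (adjusted p = 0.0613) or BFMI 1 (0.0617). Fasn, fatty acid synthase, had 617, 1102 and 944 CPM in patBFMI, against 847 and 1116 CPM in BFMI (-0.16 ± 0.26, adjusted p = 0.84). Scd1, the main desaturase, had 7384, 13567 and 12804 CPM in patBFMI, against 8389 and 8884 CPM in BFMI (0.37 ± 0.25, adjusted p = 0.56). The groups overlapped for both enzymes, and patBFMI 1 was the lowest of the 3 patBFMI libraries for both. None of 22 cholesterol synthesis genes passed edgeR's test, with 16 of them positive (median 0.32), 5 higher and 1 lower at an unadjusted p below 0.05, 5 higher with DESeq2 and 1 higher in the sex-adjusted fit.

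Several genes of insulin and growth factor signalling were higher in patBFMI. Of 19 listed insulin signalling genes, 4 rose and none fell (median 0.27). Igfbp2, a circulating binding protein of insulin-like growth factors, had 173, 78.8 and 130 CPM in patBFMI, against 14.0 and 30.4 CPM in BFMI (2.51 ± 0.42, adjusted p = 0.033). Irs2, the docking protein of the hepatic insulin receptor, had 9.93, 11.8 and 13.9 CPM in patBFMI, against 4.82 and 5.43 CPM in BFMI (1.21 ± 0.17, adjusted p = 0.02). Foxo3, a transcription factor that insulin signalling keeps out of the nucleus, had 78.7, 82.5 and 78.8 CPM in patBFMI, against 42.3 and 48.3 CPM in BFMI (0.81 ± 0.12, adjusted p = 0.025). The fourth gene was Trib1, a pseudokinase (0.68 ± 0.12, adjusted p = 0.043), which was not called in the sex-adjusted fit (adjusted p = 0.3). Each of the 4 calls was lost without patBFMI 2, patBFMI 3 or BFMI 1 (adjusted p up to 0.14), and those of Irs2 (0.0506) and Trib1 (0.106) also without BFMI 2.

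The growth factor receptors Egfr and Erbb4 and the nuclear receptor Pparg were higher in patBFMI. Egfr had 960, 1199 and 940 CPM in patBFMI, against 282 CPM in the BFMI male and 167 CPM in the BFMI female (2.19 ± 0.26, adjusted p = 0.0099). The B6N male had 1279 CPM and the B6N female 643 CPM, so that patBFMI was close to the male of the mothers' strain. Erbb4, the receptor of neuregulins, had 4.80, 4.35 and 3.79 CPM in patBFMI, against 0.745 and 0.466 CPM in BFMI (2.77 ± 0.25, adjusted p = 0.0033). Pparg, the nuclear receptor of fat cells that is low in normal liver, had 2.21, 2.14 and 1.78 CPM in patBFMI, against 0.567 and 0.291 CPM in BFMI (2.18 ± 0.31, adjusted p = 0.019). The groups were separate for all 3 genes and the direction was the same in the sex-adjusted fit, which called each of them. Without patBFMI 2 the calls of Egfr (adjusted p = 0.0512) and Pparg (0.0809) were lost, and that of Pparg also without patBFMI 3 (0.0508).

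**Figure D3:**
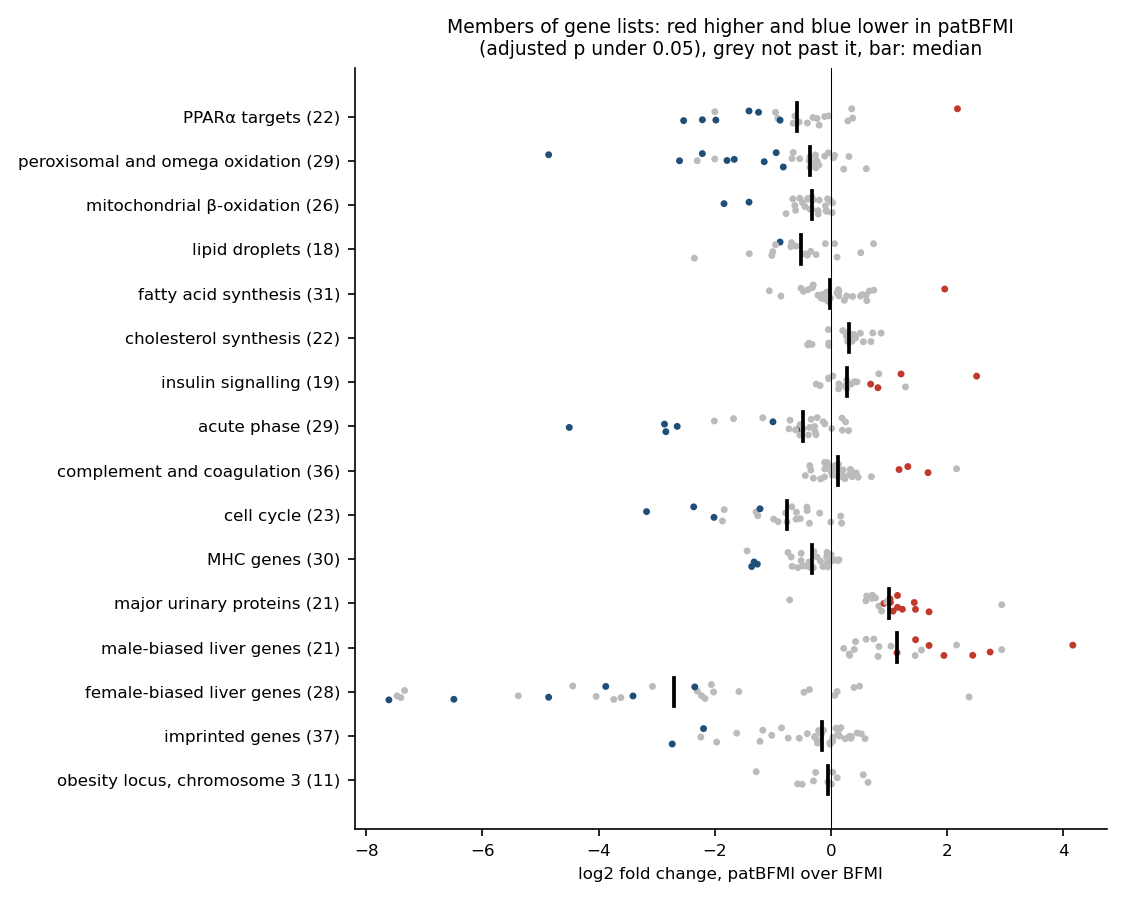
Log2 fold change of patBFMI over BFMI (horizontal axis) for the members of 16 gene lists (rows, with the number of genes tested); red points rose and blue points fell at an adjusted p below 0.05, grey points did not pass it, and black bars are list medians. Blue points number 8 of 29 for peroxisomal and omega oxidation, 6 of 29 for the acute phase and 6 of 28 for female-biased genes (median -2.71), and red points 10 of 21 for major urinary proteins and 7 of 21 for male-biased genes.

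Genes with a known sex bias differed widely, in a comparison of males with a group that held 1 female. Of 28 female-biased liver genes, 6 fell and none rose (median -2.71, against -0.25 in the sex-adjusted fit). Cyp2b9, a cytochrome P450 of female liver (chromosome 7, 26173411 to 26210661, plus strand), had 0.375, 2.42 and 0.655 CPM in patBFMI, against 89.4 CPM in the BFMI male and 350 CPM in the BFMI female (-7.61 ± 0.87, adjusted p = 0.0089). Its level was 2.90, 2.14 and 1.58 CPM in matBFMI males, and 0.967 CPM in the B6N male against 338 CPM in the B6N female. Among the 8 males of the series the BFMI male was the only one with more than 3 CPM, and with the sex term the change was -5.49 (adjusted p = 0.031). Cyp2b13, its neighbour, had 0.197, 0.276 and 0.117 CPM in patBFMI, against 5.95 CPM in the BFMI male and 28.8 CPM in the BFMI female (-6.49 ± 0.75, adjusted p = 0.009). Cyp3a44 had 1.94, 3.73 and 2.55 CPM in patBFMI, against 15.2 and 64.7 CPM in BFMI (-3.88 ± 0.57, adjusted p = 0.021), and Cyp3a16 had 0.691, 0.891 and 1.11 CPM in patBFMI, against 5.88 and 13.2 CPM in BFMI (-3.41 ± 0.36, adjusted p = 0.0074). These 4 genes were also called in the sex-adjusted fit, and the BFMI male was above every patBFMI male for each of them. The other genes that fell, Acot3 and Ntrk2, a neurotrophin receptor, were not (adjusted p = 0.087 and 0.089). Without patBFMI 2 only Cyp2b9 of these 4 was called. The number of lower genes in the list was 1 without patBFMI 2, 3 without patBFMI 3, 11 without patBFMI 1, 17 without BFMI 1 and 7 without BFMI 2.

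Male-biased genes ran the other way. Of 21 such genes, 7 rose and none fell (median 1.14), and of 21 major urinary protein genes, which encode the pheromone carriers of male urine, 10 rose and none fell (median 1.00), although 1 of the 10, Mup6, had no positive change on the RPKM values. Mup7 had 14280, 14203 and 11359 CPM in patBFMI, against 4592 CPM in the BFMI male and 3582 CPM in the BFMI female (1.69 ± 0.17, adjusted p = 0.0067). Elovl3, a fatty acid elongase of male liver, had 163, 159 and 70.3 CPM in patBFMI, against 19 and 19.8 CPM in BFMI (2.74 ± 0.37, adjusted p = 0.015). The BFMI male was close to the BFMI female for both genes, whereas the B6N male exceeded the B6N female (Mup7 9466 and 1170 CPM, Elovl3 206 and 6.89 CPM). The sex-adjusted fit called 0 of the 21 major urinary protein genes (adjusted p = 0.6 for Mup7) and only Serpina1e of the male-biased genes, and DESeq2 called 18 and 12. Cyp7b1, a sterol hydroxylase, and Hsd3b5, a steroid dehydrogenase of male liver, changed by 1.95 and 1.46 in the main fit but not in the sex-adjusted fit (adjusted p = 0.36 and 0.47). Transcripts of the major urinary proteins are near copies of each other (98.8% of bases over 984 bases for Mup7 and Mup13), so that single members are uncertain. Without patBFMI 2 the counts were 2 major urinary protein genes and 2 male-biased genes, and without BFMI 2 they were 4 and 3.

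**Figure D4:**
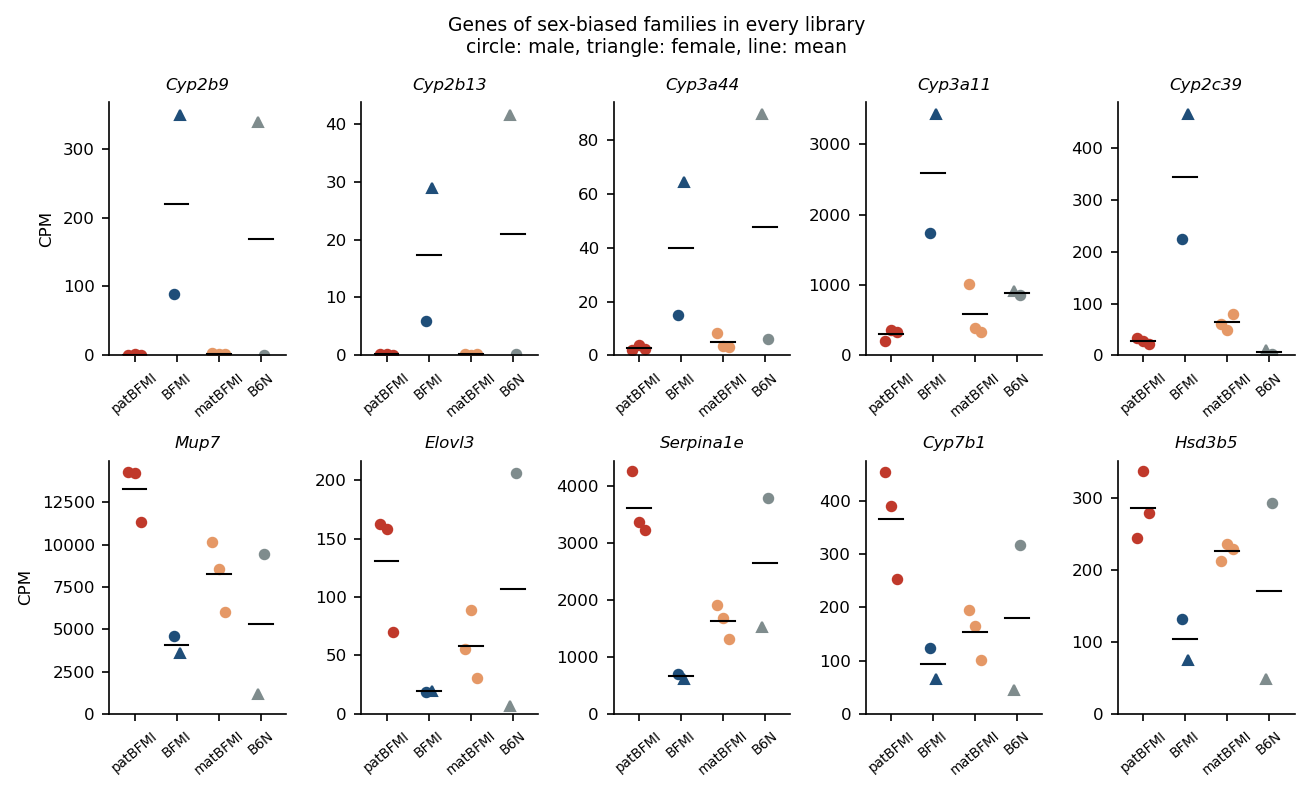
Level in CPM (vertical axes start at 0) of 10 genes of sex-biased families in every library of patBFMI, BFMI, matBFMI and B6N; circles are males, triangles are females and lines are group means. The BFMI male lies above all other males for Cyp2b9, Cyp2b13 and Cyp3a44 and near the BFMI female for Mup7, Elovl3 and Serpina1e.

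Further cytochromes of drug metabolism were also lower. Of 28 genes in the Cyp2 and Cyp3 list, 6 fell and 1 rose, and 6 fell and 2 rose in the sex-adjusted fit. Cyp3a11, the most abundant gene among them, had 199, 366 and 332 CPM in patBFMI, against 1744 CPM in the BFMI male and 3433 CPM in the BFMI female (-3.13 ± 0.35, adjusted p = 0.0089). B6N had 921 and 858 CPM and matBFMI 1020, 389 and 338 CPM, so patBFMI lay below both parental strains. Cyp3a59 had 17.8, 17.0 and 17.4 CPM in patBFMI, against 74.7 and 78.9 CPM in BFMI (-2.16 ± 0.10, adjusted p = 0.001), with almost no spread within either group, and B6N had 16.6 and 20.9 CPM. Cyp3a25, which shares 97.0% of bases with Cyp3a59 over 1991 bases and is therefore uncertain, had 269, 258 and 261 CPM in patBFMI, against 552 and 561 CPM in BFMI (-1.10 ± 0.13, adjusted p = 0.0099). Cyp2c38 had 10.8, 10.5 and 8.09 CPM in patBFMI, against 66.5 and 91.0 CPM in BFMI (-3.02 ± 0.18, adjusted p = 0.001), while the B6N female had 120 CPM and the B6N male 12.1 CPM. Cyp1a2, an enzyme of the cells around the central vein, rose instead, with 346, 360 and 379 CPM in patBFMI, against 162 and 169 CPM in BFMI (1.11 ± 0.14, adjusted p = 0.012). Calls were lost for Cyp3a11 without patBFMI 2 (adjusted p = 0.0525), for Cyp3a25 without patBFMI 3 (0.0587), and for Cyp1a2 without patBFMI 3 (0.0587) or BFMI 1 (0.0617).

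Several acute phase genes were lower in patBFMI, while a few genes of complement were higher. Of 29 acute phase genes 6 fell and none rose (median -0.48), and the sex-adjusted fit called 9. Lcn2, an iron-siderophore binding protein induced in inflammation, had 0.849, 1.42 and 0.755 CPM in patBFMI, against 34.5 CPM in the BFMI male and 10.4 CPM in the BFMI female (-4.51 ± 0.51, adjusted p = 0.0089). Saa2, a serum amyloid A protein, had 3.34, 6.30 and 4.63 CPM in patBFMI, against 52.6 and 14.9 CPM in BFMI (-2.84 ± 0.49, adjusted p = 0.035). Lbp, which carries bacterial lipopolysaccharide to its receptor, had 116, 120 and 118 CPM in patBFMI, against 232 and 236 CPM in BFMI (-1.0 ± 0.12, adjusted p = 0.011). The first 2 genes were higher in the BFMI male than in the BFMI female, in the same direction as the 2 neutrophil genes S100a8 and S100a9, of which S100a9 fell (-2.59 ± 0.47, adjusted p = 0.044). Orm2, Orm3 and Mt2, carrier and metal-binding proteins of this response, fell as well (-0.55, -2.65 and -2.87). The number of lower acute phase genes was 1 without patBFMI 2, 2 without patBFMI 3 and 3 without BFMI 1, and without BFMI 1 the call of Lcn2 was kept while that of S100a9 was lost (adjusted p = 0.268). Lcn2 lost its call without patBFMI 2 (adjusted p = 0.0565) and Lbp without patBFMI 3 (0.0625). That of Saa2 was lost without patBFMI 2 (0.105), patBFMI 3 (0.137) or BFMI 1. The call of S100a9 was also lost without patBFMI 2 (0.125) or patBFMI 3 (0.169). The call of Orm2 was lost in all 5 fits that left out 1 library (adjusted p up to 0.204).

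Of 36 complement and coagulation genes 3 rose and none fell (median 0.12). C4b, the complement component C4, had 799, 799 and 888 CPM in patBFMI, against 256 and 260 CPM in BFMI (1.67 ± 0.14, adjusted p = 0.003), with B6N at 1258 and 1496 CPM. C8b, a part of the membrane attack complex, had 438, 395 and 329 CPM in patBFMI, against 155 and 152 CPM in BFMI (1.32 ± 0.17, adjusted p = 0.012). The third gene, C4a, is a near copy of C4b (96.0% of bases over 5378 bases) and its reads are uncertain. Of the most abundant genes that rose, Serpina1e and Serpina1d belong to the protease inhibitors of the α1-antitrypsin cluster on chromosome 12. Serpina1e had 4259, 3366 and 3232 CPM in patBFMI, against 705 and 616 CPM in BFMI (2.44 ± 0.18, adjusted p = 0.0013), and Serpina1d had 2722, 2897 and 2594 CPM in patBFMI, against 1385 and 1140 CPM in BFMI (1.11 ± 0.15, adjusted p = 0.016). Abcb11, the bile salt export pump, had 774, 743 and 802 CPM in patBFMI, against 330 and 457 CPM in BFMI (0.96 ± 0.18, adjusted p = 0.046), and Ces3b, a carboxylesterase of the endoplasmic reticulum, had 816, 766 and 725 CPM in patBFMI, against 354 and 353 CPM in BFMI (1.11 ± 0.14, adjusted p = 0.012). Serpina1 genes are near copies as well (96.3% of bases over 1572 bases for Serpina1e and Serpina1b). C4b and Serpina1e kept their calls whichever library was left out, whereas Abcb11 reached an adjusted p of 0.186 without patBFMI 3 and was also lost without patBFMI 2 or BFMI 1, C8b was lost without patBFMI 2, BFMI 1 or BFMI 2 (adjusted p up to 0.0611) and in the sex-adjusted fit (0.083), Serpina1d without patBFMI 2 or patBFMI 3 (up to 0.0651) and Ces3b without patBFMI 3 or BFMI 1 (up to 0.0512).

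A few cell cycle and surface genes were lower, most of them at low levels. Of 23 cell cycle genes 4 fell and none rose (median -0.76). Cdkn1a, the inhibitor p21, which stops rather than drives division, had 0.652, 0.679 and 0.386 CPM in patBFMI, against 7.65 CPM in the BFMI male and 2.41 CPM in the BFMI female (-3.17 ± 0.48, adjusted p = 0.025). The cyclins Ccnd1 and Ccnb1 and the mitotic activator Cdc20 also fell (-1.22, -2.36 and -2.01), Ccnb1 and Cdc20 at under 1.4 CPM in every library. Each of these 4 calls was lost without patBFMI 2 or patBFMI 3, only that of Ccnd1 was left without BFMI 1 and only that of Cdkn1a without BFMI 2, and the sex-adjusted fit called neither Ccnd1 (adjusted p = 0.33) nor Ccnb1 (0.09). Ly6d, a surface protein of the Ly6 family, had 0.257, 0.806 and 0.185 CPM in patBFMI, against 22.7 and 4.77 CPM in BFMI (-5.11 ± 0.75, adjusted p = 0.021), and Sema5b, a semaphorin, had 1.13, 2.46 and 0.772 CPM in patBFMI, against 12.1 and 9.92 CPM in BFMI (-2.95 ± 0.40, adjusted p = 0.015). The call of Ly6d was lost without patBFMI 2 (adjusted p = 0.0761) or patBFMI 3 (0.0836), and that of Sema5b without BFMI 1 (0.0581).

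Several genes were close to absent in BFMI and present in patBFMI. Cebpe, a transcription factor of the C/EBP family (chromosome 14, 54710360 to 54712174, minus strand), had 1.66, 1.61 and 1.76 CPM in patBFMI, against 0.0298 and 0.0194 CPM in BFMI, which rest on 4 reads. The ratio of the pooled reads was 59.8, with a 95% exact counting interval from 23.1 to 221. Olfr1033, an olfactory receptor gene with 452 reads over the patBFMI libraries and 3 over BFMI, had a ratio of 136 (46.2 to 662). Adgrf1, an adhesion G protein-coupled receptor (chromosome 17, 43270329 to 43324737, plus strand), had 13.6, 15.1 and 12.0 CPM in patBFMI, against 0.209 and 0.563 CPM in BFMI (5.26 ± 0.36, adjusted p = 0.0012). Camk2b, a calcium-dependent protein kinase, had 4.74, 4.33 and 5.05 CPM in patBFMI, against 0.358 and 0.213 CPM in BFMI (3.96 ± 0.25, adjusted p = 0.0011). Nmnat3, an enzyme of NAD synthesis, had 2.71, 2.46 and 2.67 CPM in patBFMI, against 0.189 and 0.097 CPM in BFMI (4.07 ± 0.30, adjusted p = 0.0013), and Clec2h, a C-type lectin, had 3.10, 4.54 and 8.59 CPM in patBFMI, against 0.149 and 0.0776 CPM in BFMI (5.44 ± 0.59, adjusted p = 0.0079). The calls of these 6 genes were kept in every fit that left out a library and in the sex-adjusted fit. Cebpe and Olfr1033 passed the count minimum only through patBFMI, where they were high. A gene as low in BFMI and also low in patBFMI could not appear here, so their calls and intervals are a description. The remaining genes of the 12 with the largest rise were Erbb4, Zfp982, Sytl1, Cib3, Dhrs9, a retinol and steroid dehydrogenase, and Slc15a2, a peptide transporter, with changes from 2.77 to 3.25. Slc15a2 had 5.39, 3.48 and 3.22 CPM in patBFMI and 0.626 and 0.446 CPM in BFMI, and matBFMI was low as well (0.391, 0.156 and 0.169 CPM), with B6N at 4.60 and 1.56 CPM. Of these, Sytl1 lost its call without BFMI 1 (adjusted p = 0.0723) and Dhrs9 without patBFMI 2 (0.0537).

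To see what 1 BFMI genome contributes, genes were taken whose level in both libraries of 1 parental strain was at least 1 CPM and in both libraries of the other strain at most 5% of the lower of these. This choice was made after the data were seen and used the BFMI levels, so the calls in these sets are a description. The genes also had to pass the count minimum in the patBFMI and BFMI libraries. A gene nearly absent in BFMI could pass it through patBFMI alone, so such genes that were low in patBFMI are missing. Genes high in BFMI passed it whatever their patBFMI level, so the percentages of both sets are not a like comparison. Of 9 genes that were high in B6N and low in BFMI, 5 were protein coding, and their patBFMI mean was 54.0% to 63.8% of the B6N mean (median 56.7%). They were Camk2b, Adgrf1, Olfr1033, Olfr1034 and Cebpe, and each mean lay slightly above the midpoint of the parental strains. The other 4 were not protein coding and ranged from 17.8% to 57.04%, with the small nuclear RNA Gm22513 and the antisense RNA 4930481A15Rik under 25%. Of 13 genes that were high in BFMI and low in B6N, 8 were protein coding, and their patBFMI mean ranged from 7.93% to 67.2% of the BFMI mean (median 27.2%). Of these 8 genes, 5 lay under 35%: Cyp2c39 (7.93%), A4gnt (19.8%), Corin (22.3%), Ctse (26.1%) and Cyp46a1 (28.3%). The other 3, Vmn2r21, Serpina3c and Vmn2r20, lay from 59.8% to 67.2%, and the vomeronasal receptor genes Vmn2r20 and Vmn2r21 are near copies of Vmn2r22. The 5 that were not protein coding ranged from 2.88% (Gm11512) to 100% (Serpina3l-ps). In matBFMI, which also carries 1 BFMI genome, the 8 genes had a median of 52.9% of the BFMI mean, and the 5 genes high in B6N a median of 37.1% of the B6N mean (24.8% to 78.0%). That 37.1% is the value of Olfr1034, with 0.838, 0 and 0.902 CPM in matBFMI. Olfr1033, its neighbour on chromosome 2, had 3.00, 0.0173 and 2.63 CPM. Both were nearly absent in matBFMI 2 only, so this median depends on 1 library.

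The values of the genes under 35% show the pattern in each library. Ctse, the aspartic protease cathepsin E, had 12.3, 14.4 and 12.5 CPM in patBFMI, against 55.4 and 44.6 CPM in BFMI (-1.95 ± 0.14, adjusted p = 0.0013), with 0.454 and 0.409 CPM in B6N. Cyp46a1, the cholesterol 24-hydroxylase, had 13.4, 16.2 and 17.5 CPM in patBFMI, against 53.7 and 57.4 CPM in BFMI (-1.83 ± 0.14, adjusted p = 0.0014), with 0.619 and 0.725 CPM in B6N. Corin, the protease that activates atrial natriuretic peptide, had 3.93, 5.24 and 4.46 CPM in patBFMI, against 22.5 and 18.2 CPM in BFMI (-2.18 ± 0.16, adjusted p = 0.0013), with 0.845 and 0.428 CPM in B6N. In these genes every patBFMI library was below 35% of the BFMI mean. Cyp2c39, a retinoic acid hydroxylase, had 33.3, 26.8 and 22 CPM in patBFMI, against 225 CPM in the BFMI male and 465 CPM in the BFMI female (-3.67 ± 0.32, adjusted p = 0.003), and 10.2 and 1.8 CPM in B6N. Against the BFMI male alone its change was -3.03 (adjusted p = 0.0042 in the males-only fit). By contrast Serpina3c, a serine protease inhibitor, had 119, 132 and 103 CPM in patBFMI, against 202 and 179 CPM in BFMI, and did not pass the test (-0.70 ± 0.15, adjusted p = 0.077). A4gnt, an N-acetylglucosaminyltransferase of mucin glycans, had 2.19, 4.20 and 2.95 CPM in patBFMI, against 19.9 and 11.5 CPM in BFMI (-2.35 ± 0.31, adjusted p = 0.013), and its call was lost without patBFMI 3 (adjusted p = 0.0587).

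**Figure D5:**
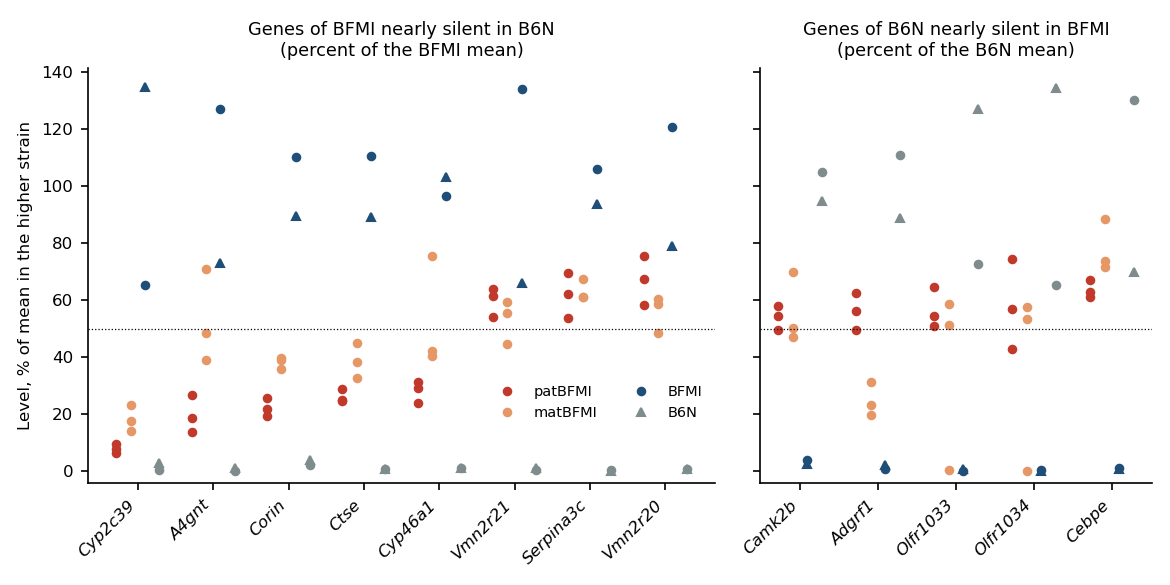
Level of 13 protein coding genes as a percentage of the mean in the higher parental strain (vertical axis; BFMI at left, B6N at right), for each library of patBFMI (red), matBFMI (orange), BFMI (blue) and B6N (grey); circles are males, triangles are females and the dotted line marks 50%. At left, patBFMI lies at 7.93% to 28.3% on average for 5 genes and at 59.8% to 67.2% for 3, and at right it lies at 54.0% to 63.8%.

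Further genes whose level lay between those of the strains were Mug2, H2-Ea-ps and Rps18. Mug2, a murinoglobulin protease inhibitor named here after its values were seen, had 534, 482 and 565 CPM in patBFMI, against 158 and 137 CPM in BFMI (1.82 ± 0.16, adjusted p = 0.003), with 712 and 718 CPM in B6N. H2-Ea-ps, the MHC class II gene that C57BL/6 mice are known not to express, is 1 of the 13 genes high in BFMI and had 7.98, 9.20 and 8.19 CPM in patBFMI, against 18.9 and 23.2 CPM in BFMI (-1.32 ± 0.14, adjusted p = 0.0067), with 0.103 and 0.093 CPM in B6N. It was 1 of 3 MHC genes that fell among 30, beside H2-Q1 and H2-Q2, and the calls of H2-Ea-ps and H2-Q2 were kept in every fit that left out a library, while H2-Q1 lost its call without patBFMI 2, patBFMI 3 or BFMI 2 (adjusted p up to 0.0874). Rps18 was the only gene called among 40 of the cytosolic ribosome, of which 39 had a positive change (median 0.28). It had 25.5, 28.6 and 26.0 CPM in patBFMI, against 6.62 and 8.97 CPM in BFMI (1.77 ± 0.16, adjusted p = 0.0042), with 44.7 and 46.0 CPM in B6N, and a processed copy of 98.1% identity over 413 bases makes its reads uncertain.

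Over all called genes, the patBFMI mean was compared with the means of both parental strains. Of the 158 genes that rose, 94 lay between BFMI and B6N and 64 lay above both strains. Of the 173 that fell, 75 lay between the strains and 98 below both, whereas of all genes tested 37.7% lay between, 31.8% above both and 30.6% below both. The calls used the same patBFMI and BFMI libraries, so a gene that rose could not lie below both strains. Likewise a gene that fell could not lie above both. The shares over all genes, here and with males alone, are therefore not a like comparison for the called genes. With the males of the parental strains alone, 97 of the genes that rose lay between and 61 above both, and 94 of those that fell lay between and 79 below both, against 42.8% between, 30.1% above and 27.2% below over all genes tested. The genes below both strains included Cyp3a11 and Cyp4a14, and those between included Ctse, Corin and Cyp46a1.

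In the reciprocal set, 3 matBFMI males against 2 B6N animals, none of these libraries is shared with patBFMI or BFMI, although the genomes are related. Of the 158 genes that rose, 117 had a negative change in matBFMI over B6N (median -0.43), and 42 were called lower and 4 higher there. Of 172 genes that fell and were tested, 103 had a positive change (median 0.23), and 41 were called higher and 11 lower. Over all 16701 genes tested in both comparisons 50.5% were positive (median 0.005), with 452 called higher and 644 lower. The share of lower genes with a positive change was 32% without patBFMI 1 and 69.0% without patBFMI 2.

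On single chromosomes the share of genes called was 1.87% over all autosomes and reached 4.13% on chromosome 4, with 33 genes higher and 20 lower out of 1284, where the major urinary protein and Cyp4a clusters lie. Chromosome 12 followed with 10 higher and 12 lower of 620 (3.55%), and chromosome 14 had 1 gene called of 610, Cebpe. Around the known obesity locus of BFMI on chromosome 3, edgeR called none of 11 genes (median -0.05), with 1 higher and 2 lower at an unadjusted p below 0.05, and DESeq2 called 1 lower. Bbs7, a subunit of the BBSome that moves cargo in cilia, had 2.05, 1.55 and 2.13 CPM in patBFMI, against 1.23 and 1.20 CPM in BFMI (0.64 ± 0.22, adjusted p = 0.22), with 3.79 and 2.98 CPM in B6N. The groups did not overlap for Bbs7, as for 18.5% of all genes in this direction. Ccna2, a cyclin gene of the locus, changed by -1.29 (adjusted p = 0.18).

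Of 37 imprinted genes, 2 fell and none rose (median -0.16). H19, a maternally expressed RNA, had 0.158, 0.148 and 0.235 CPM in patBFMI, against 0.825 and 1.63 CPM in BFMI (-2.73 ± 0.43, adjusted p = 0.027), and Meg3, also maternally expressed, had 0.770, 0.467 and 0.302 CPM in patBFMI, against 2.93 and 1.65 CPM in BFMI (-2.19 ± 0.40, adjusted p = 0.043). Neither was called in the sex-adjusted fit (adjusted p = 0.48 and 0.058), and neither without patBFMI 2 or patBFMI 3 (adjusted p up to 0.138), H19 was also lost without BFMI 2 (0.132) and Meg3 without BFMI 1 (0.245). Peg3, a paternally expressed zinc finger gene, had 32.3, 16.0 and 33.6 CPM in patBFMI, against 21.0 and 22.5 CPM in BFMI (0.32 ± 0.28, adjusted p = 0.68), and the groups overlapped. EdgeR called no member of 6 further lists. Of all 17714 autosomal genes tested, 1324 were higher and 1430 lower at an unadjusted p below 0.05 in edgeR. DESeq2 called 554 higher and 509 lower. Whether any of the lists departs from these shares was not tested. At an unadjusted p below 0.05, 0 genes were higher and 4 lower among 25 of glycolysis and gluconeogenesis, none of 39 of the respiratory chain differed, 4 were higher and 1 lower among 26 of the unfolded protein response, 3 and 11 among 32 of glutathione and NRF2, 2 and 4 among 16 of iron handling, and 1 and 1 among 20 of the BBSome and cilia. DESeq2 called 1 gene of glycolysis and gluconeogenesis lower, 3 of the unfolded protein response higher, 1 of glutathione and NRF2 higher and 2 lower, 1 of iron handling higher and 2 lower, and 0 in the other lists.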

How the data were processed

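Liver RNA was sequenced from 10 mice, and the members and gene lists of this comparison were chosen with earlier results of these data known. The authors deposited a table of read counts for Ensembl genes and a table of RPKM values that they had quantile normalised. Bowtie2 2.2.6, Picard 1.99, TopHat2 2.10 and Trimmomatic 0.32 are listed in their notes, whereas the paper names BWA, and the molecule is recorded as polyA RNA although removal of ribosomal RNA is described. Each table held 3 columns without a sample record, which were not used. Gene identifiers were matched to GENCODE M21 (40340 of 41388), and of 1047 list entries 7 were not matched.

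Counts of patBFMI and BFMI were tested with edgeR 4.0.16 in R 4.3.3 (TMM, quasi-likelihood F-test, Benjamini-Hochberg adjustment over all chromosomes, threshold 0.05), without covariates. The biological coefficient of variation was 19.4%. Replicates are single animals, and counting intervals cover counting error only. Named genes were the 12 largest changes and the 5 most abundant genes in each direction among protein coding genes called in both the main and the sex-adjusted fit with separate libraries and at least 1 CPM, the 2 to 4 members with the smallest p of each list, and the chromosome 3 locus. Other genes were named after their values were seen, among them Fgf21, Cpt1a, Ppara, Fasn, Scd1, Acot1, Acot3, Acot4, Cyp4a32, Ntrk2, Cyp4a10, Mup13, Orm2, Mug2, Peg3, Gm11512 and the strain-specific genes. Some items that the rule covers are not reported here. Alternatives were limma 3.58.1 on RPKM, DESeq2 1.42.0, other scalings and filters, a sex term, males only and leaving out each library. On simulated counts for 18646 genes, 46 of 100 genes changed 2-fold and 92 of 100 changed 4-fold were recovered, with 13 false calls. The simulation gave every gene the same coefficient of variation of 19.4% and held no difference of sex, lane or diet. Its rates therefore do not describe the error among the real libraries. Near copies were found with BLAST 2.17.0. Python 3.11.15 was used for tables and figures.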

Additional observations from a re-analysis of the deposited data

How the results depend on the processing

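The number of genes higher and lower in patBFMI, 158 and 173 in the main fit, was 114 and 214 with library sizes only, 141 and 192 with upper quartile scaling, 167 and 185 when 10 counts were required in 3 of the 5 libraries, and 135 and 175 with males only. It was 554 and 509 with DESeq2, 530 and 689 with no filter on low counts, 291 and 296 with all 10 libraries and a sex term, and 0 and 0 with limma on log2(RPKM + 1) and on log2(RPKM + 0.1), where 173 higher and 1192 lower genes had an unadjusted p below 0.05 at the smaller pseudocount. The cause of these differences was not tested. The RPKM values moved the median of all genes by -0.23 and -0.50 on the log2 scale, and library sizes only by -0.09. Leaving out 1 library gave 64 to 220 higher and 47 to 457 lower genes. All 158 higher genes and 172 of the 173 lower genes were called again by DESeq2. Among the named genes called in the main fit only 1 changed its sign: the log2 fold change of Mup6 was 1.46 in the main fit, -0.0009523 on log2(RPKM + 1) and -0.03868 on log2(RPKM + 0.1). No paired analysis was possible because the labels number the F1 animals but give no numbers for the BFMI animals. With 2 BFMI animals of different sex the spread within BFMI holds the sex difference, and effects of diet and lane cannot be told apart from those of genome. Differences at levels under about 1 CPM rest on few reads.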

Other observations

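On the X chromosome, which the sons in patBFMI receive from their B6N mothers, 6 of 737 genes tested were called and all 6 were lower than in BFMI in edgeR's test. This share of 0.814% was below the 1.87% of autosomal genes called. Armcx4 had 1.72, 1.72 and 1.93 CPM in patBFMI, against 10.8 and 8.5 CPM in BFMI (-2.44 ± 0.16, adjusted p = 0.0012), with 5.38, 5.05 and 5.43 CPM in matBFMI and 2.85 and 2.81 CPM in B6N. Gspt2, a translation termination factor, had 0.612, 0.297 and 0.503 CPM in patBFMI, against 3.01 and 4.15 CPM in BFMI (-2.92 ± 0.30, adjusted p = 0.006), with 2.07, 2.16 and 1.73 CPM in matBFMI and 0.598 and 0.316 CPM in B6N.

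The processed pseudogene Gm11512 on chromosome 11 was noticed after its values were seen. It had 0.375, 0.318 and 0.218 CPM in patBFMI, against 12.8 and 8.29 CPM in BFMI (-5.14 ± 0.28, adjusted p = 0.001), with 7.65, 7.5 and 7.74 CPM in matBFMI and 0.309 and 0.372 CPM in B6N. It was low where the mother was B6N and high where the mother was BFMI. Its transcript matches mt-Co1, a gene of the mitochondrial genome, which is inherited from the mother, with 90.7% of bases over 654 of 663 bases. The part of mitochondrial reads in this count was not tested.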
